A study of Mus musculus with 15 samples.

Results

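The genes described here are the D cyclins Ccnd1, Ccnd2 and Ccnd3, the kinases Cdk4 and Cdk6, the CDK inhibitors Cdkn1a, Cdkn1b, Cdkn1c and Cdkn2c, and the retinoblastoma gene Rb1. They were picked by symbol, and all 10 were found among the 45232 gene IDs of the count table, each with a single ID. All 10 passed the filter on low counts that left 17834 genes for testing. RNA sequencing was performed on 15 libraries of LSK cells, a bone marrow fraction of stem cells and early progenitors sorted as negative for lineage markers and positive for Sca-1 and c-Kit, to ask what JAK2/IDH2-mutant disease and its treatment do to their transcripts. The 12 mutant libraries came from irradiated CD45.1 hosts that had received a mixture of WT marrow and CD45.2 marrow with the Jak2 V617F and Idh2 R140Q alleles, and only the CD45.2+ LSK cells were sorted. Of these libraries, 3 came from hosts given vehicle, 3 from hosts given AG221, an inhibitor of mutant IDH2, at 40 mg/kg, 3 from hosts given ruxolitinib, a JAK kinase inhibitor, at 60 mg/kg, and 3 from hosts given both drugs at those doses (combined treatment), by gavage for 21 to 28 days with a last dose about 1.5 hours before sacrifice. The remaining 3 libraries were WT LSK cells, on the same C57BL/6 strain, for which no treatment is stated here.

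The mutant alleles are switched on by Mx1-Cre, which is induced through an interferon response and acts in blood cells and also in other tissues. The model is not limited to a single blood lineage. In the CD45.1 hosts the alleles came only with the CD45.2 donor marrow. The labels do not say that each library was a separate mouse, although the study's text describes the treated groups in that way, and the sources used here do not give the age and sex of the mice behind each library, in a study that used mice of both sexes. The edgeR p-values rest on the spread between the 3 libraries within a group, estimated over all groups together. Part of that spread may be technical. Total counts on genes ran from 18836625 to 32174287 per library (median 25545779), so that 3 counts, the upper limit that a count of 0 allows, corresponded to 0.0932 to 0.159 CPM (read counts scaled by library size). These limits cover counting error only. The transcripts of the gate were present in every group, with Kit between 740 and 1552 CPM and Ly6a, which encodes Sca-1, between 13.1 and 166 CPM. Both ends of the Ly6a range lay in the vehicle group, whose libraries were at 13.1, 71.9 and 166 CPM. In bulk RNA, fewer cells of a type and less RNA per cell cannot be told apart.

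Some facts of the libraries touch every comparison. The replicate names of the vehicle, AG221 and ruxolitinib libraries begin with A, those of the combined and WT libraries begin with B, and the sources used here do not say what the letters mean, so the letter cannot be told apart from the group where an A group is compared with a B group. Only AG221 against vehicle, ruxolitinib against vehicle and combined treatment against WT stay within a letter. Xist was at 455 to 511 CPM in WT and at 0.365 to 19.5 CPM in the mutant groups, whereas Ddx3y of the Y chromosome was at no more than 0.101 CPM in WT and at 124 to 206 CPM in the mutant groups. Sex and genotype can therefore not be told apart in any comparison with WT. Whether the WT mice were also irradiated, transplanted or gavaged is not stated here. If they were not, those steps cannot be told apart from genotype either.

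D cyclins are the sensors of growth signals in the G1 phase of the cell cycle. They bind CDK4 or CDK6, and the active kinases phosphorylate the retinoblastoma protein, which then releases E2F factors to switch on the genes of DNA replication. The INK4 inhibitors, to which Cdkn2c (p18) belongs, bind CDK4 and CDK6 themselves, whereas the CIP/KIP inhibitors Cdkn1a (p21), Cdkn1b (p27) and Cdkn1c (p57) bind complexes of cyclin and CDK. In hematopoietic stem cells, CDK6 is known for exit from quiescence, and Cdkn1c is known for keeping the cells quiescent.

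Per length of the gene's exons, Cdk4 was the most abundant of the 10 transcripts in all 5 groups, with 176 ± 24.9 CPM per kb in WT (SD, n = 3) and 319 ± 39.8 with AG221. Ccnd2 and Cdk6 held the next ranks in each group. At the bottom of the order in WT were Rb1 at 1.56 ± 0.292 CPM per kb and Cdkn1c at 3.01 ± 1.58. In the vehicle group Cdkn1a held rank 4 with 28.2 ± 5.78 CPM per kb, whereas in WT it held rank 8 with 3.52 ± 0.479. The libraries of the other members lay within 6.41-fold of each other between the lowest and the highest, except for Cdkn1a (11.2-fold), Cdkn2c (13.9-fold) and Cdkn1c (262-fold).

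**Figure D1:**
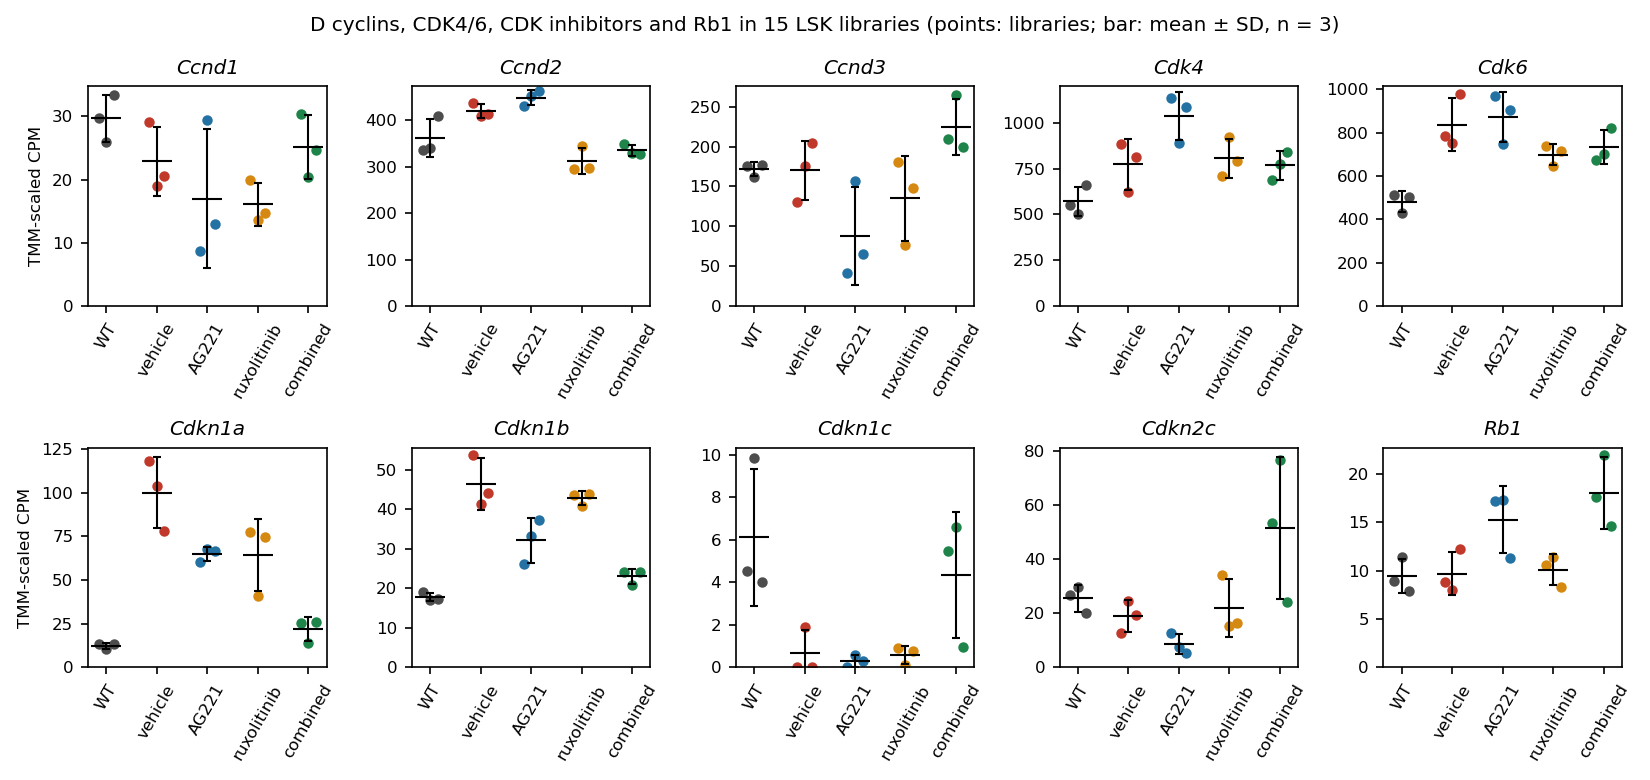
TMM-scaled CPM (vertical axes, linear, from 0) of the 10 genes in the 5 groups of 3 libraries. Points are libraries and bars the mean ± SD, cut at 0. Cdkn1a and Cdkn1b were highest with vehicle and low in WT and combined libraries, whereas Cdkn1c was low in the groups whose replicate names begin with A.

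Comparison of vehicle-treated mutant cells with WT cells called 4 of the 10 genes in edgeR at an adjusted p-value under 0.05. The untreated disease cannot be told apart there from sex and from the replicate letter, nor from transplantation and gavage if the WT mice had neither. Cdk6, Cdkn1a and Cdkn1b were higher and Cdkn1c was lower. Over all genes tested, 15.4% were called higher and 17.9% lower in this comparison, which is the background for the 3 of 10 and 1 of 10 members. Comparison of combined treatment with vehicle called Cdkn2c and Rb1 higher, beside 8.28% of all genes, and Cdkn1a and Cdkn1b lower, beside 4.21% of all genes. The median log2 fold change of the 10 genes was 0.13 in vehicle against WT, where that of all genes was -0.091, and 0.061 in combined treatment against vehicle, where that of all genes was 0.037.

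**Figure D2:**
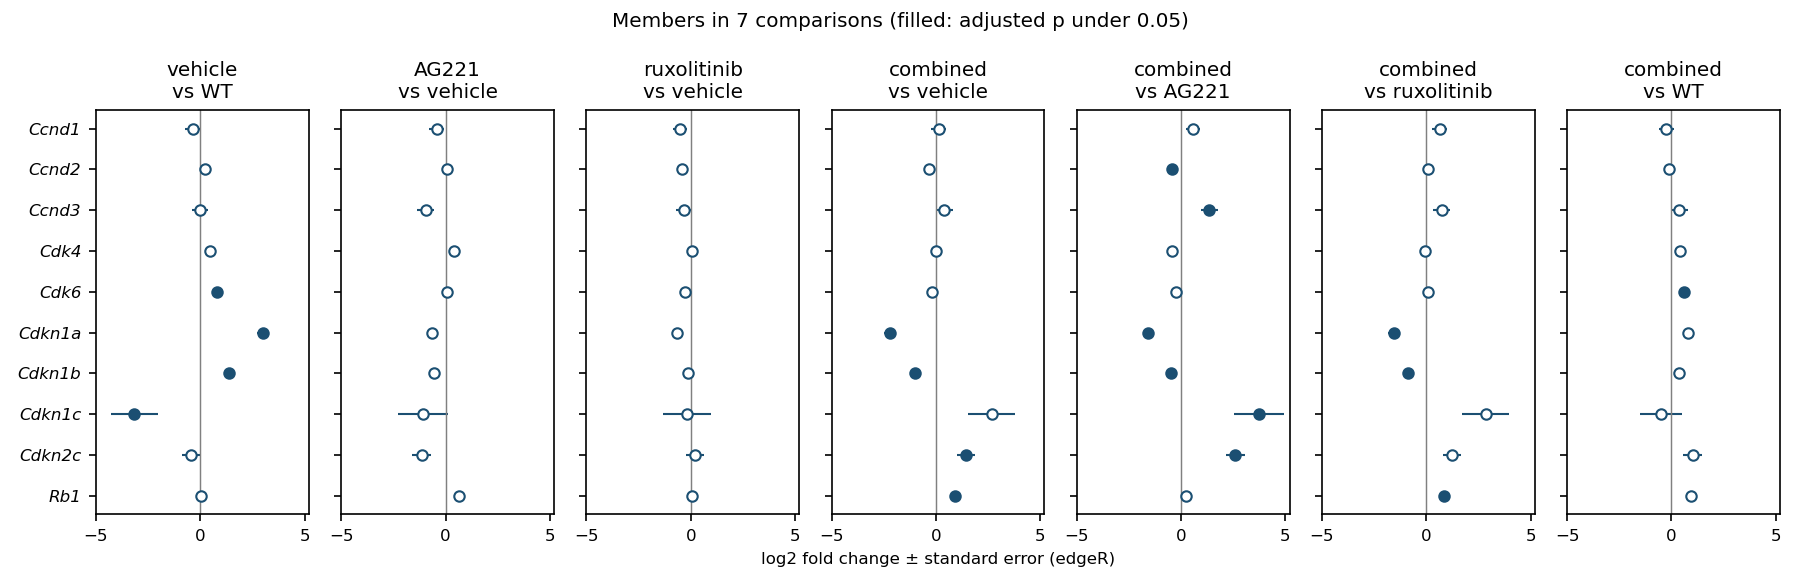
Log2 fold changes (horizontal axes, the first group against the second) with standard errors from edgeR for the 10 genes in 7 comparisons, with filled points for an adjusted p-value under 0.05. Cdkn1a moved from 3.0 in vehicle against WT to -2.19 in combined treatment against vehicle, and the error bars of Cdkn1c are the widest.

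Among the D cyclins, Ccnd2 had the highest level per length in all 15 libraries and varied least, 1.57-fold between its lowest and highest library. Ccnd2 (ENSMUSG00000000184, GRCm38 chr6:127125162-127152193, minus strand), whose product drives G1 progression in response to cytokines, was at 335, 341 and 409 CPM in WT, at 437, 409 and 414 CPM with vehicle and at 430, 452 and 462 CPM with AG221. It was at 294, 344 and 297 CPM with ruxolitinib and at 349, 329 and 327 CPM with combined treatment. The combined libraries all lay below the AG221 libraries, and the ruxolitinib libraries all lay below the vehicle libraries. In edgeR, Ccnd2 fell in combined treatment against AG221, with a log2 fold change of -0.42 ± 0.11 (SE) and an adjusted p of 0.012, a call that was lost without a filter on low counts (-0.46). Against vehicle, ruxolitinib gave -0.43 ± 0.11 with an unadjusted p of 0.00163 and an adjusted p of 0.504 in edgeR, in a comparison where few genes were called.

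Ccnd3 (ENSMUSG00000034165, GRCm38 chr17:47505051-47599691, plus strand), the D cyclin known for the expansion of lymphoid and erythroid precursors, varied more within groups. Its values were 176, 162 and 177 CPM in WT, 130, 176 and 204 CPM with vehicle and 210, 264 and 199 CPM with combined treatment. With AG221, library A9 was at 157 CPM, whereas A8 and A10 were at 41.1 and 65.0 CPM. With ruxolitinib, A16 was at 76.7 CPM beside 180 and 148 CPM in A14 and A17. The same 3 libraries, A8, A10 and A16, were the lowest of all for Idh2, the gene that carries a mutant allele here, with 55.1, 65.9 and 124 CPM against 212 to 568 CPM in the other 12 libraries. Whether the state of those libraries has a part in the Ccnd3 values was not tested. Ccnd3 was higher with combined treatment than with AG221 by 1.36 ± 0.403 on the log2 scale (edgeR, adjusted p = 0.0211). That call was lost without A8 (0.98), A10 (1.15) or B25 (1.23) and in a fit of only the compared groups (1.34), and without A9 the value was 2.08. The AG221 fall against vehicle, -0.95 ± 0.4, did not pass in edgeR (adjusted p = 0.162) and passed without A9, at -1.69.

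Ccnd1 (ENSMUSG00000070348, GRCm38 chr7:144929931-144939925, minus strand), the D cyclin with the broadest role in growth factor signaling, was the least abundant of the family. It was at 25.9 to 33.4 CPM in WT, 19.0 to 29.1 CPM with vehicle, 8.68 to 29.4 CPM with AG221, 13.6 to 20.0 CPM with ruxolitinib and 20.4 to 30.4 CPM with combined treatment. Ordered by their means, as WT, combined treatment, vehicle, AG221 and ruxolitinib, neighbouring groups overlapped throughout. The combined libraries all lay above the ruxolitinib libraries. With all libraries, no comparison of Ccnd1 passed in edgeR. Exons of the opposite-strand gene LTO1 cover 23.4% of the exons of Ccnd1, and LTO1 was at 20.0 to 31.1 CPM, a level similar to that of Ccnd1, so the Ccnd1 level is uncertain if the reads were counted without strand. Without A9, AG221 against vehicle gave -1.09 for Ccnd1 and passed, against -0.43 ± 0.356 with all libraries.

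Per length, the D cyclin message with combined treatment was 53.6% ± 2.77 Ccnd2 and 38.3% ± 4.35 Ccnd3 (SD, n = 3), and with AG221 it was 79.0% ± 11 Ccnd2 and 15.4% ± 8.29 Ccnd3. With vehicle the shares were 64.9% ± 3.78 and 28.0% ± 5.46, and in WT 59.7% ± 2.06 and 30.5% ± 1.93. The combined libraries had the lowest Ccnd2 shares, 50.4% to 55.5%, of all 15 libraries. For combined treatment against vehicle the exact two-sided permutation p was 0.1 for both shares, the smallest that 3 against 3 libraries can give.

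**Figure D3:**
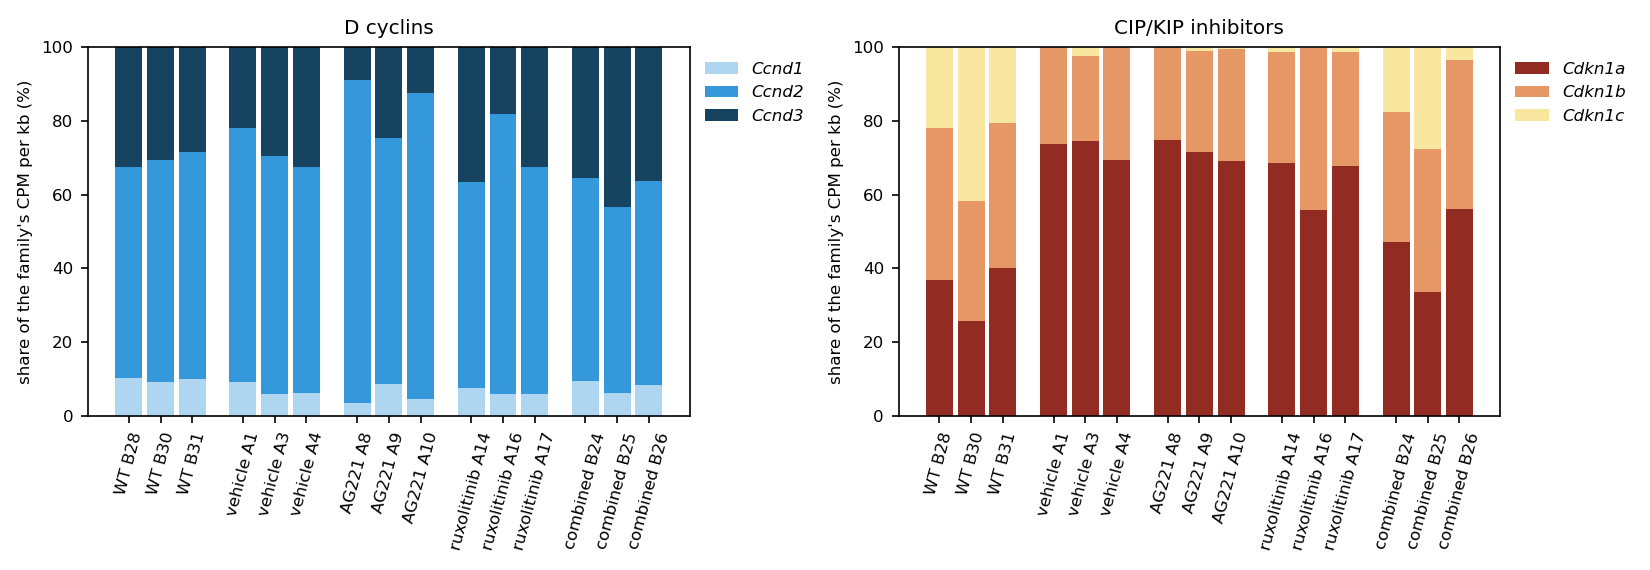
Share of each D cyclin (left) and each CIP/KIP inhibitor (right) in the summed CPM per kb of its family (vertical axes, percent), with 1 bar per library. Cdkn1a made up 55.9% to 74.8% of the CIP/KIP message in the vehicle, AG221 and ruxolitinib libraries, and Cdkn1c reached 20.5% to 41.7% in WT.

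Of the kinases, Cdk6 (ENSMUSG00000040274, GRCm38 chr5:3341485-3531008, plus strand) was higher in all mutant groups than in WT. It was at 513, 427 and 504 CPM in WT and at 784, 750 and 977 CPM with vehicle. The AG221 libraries had 967, 746 and 906 CPM, the ruxolitinib libraries 736, 644 and 714 CPM and the combined libraries 675, 703 and 823 CPM. Each of the 12 mutant libraries exceeded each WT library. Vehicle exceeded WT by 0.80 ± 0.142 on the log2 scale (edgeR, adjusted p = 0.00331), and every alternative kept that call. Combined treatment still exceeded WT by 0.61 ± 0.142 (edgeR, adjusted p = 0.0373), beside 1.63% of all genes called higher and 1.61% lower in that comparison, in which no member was called lower. At an unadjusted p under 0.05, 6 members were higher with combined treatment than in WT and 0 lower, and DESeq2 called 2 members. The matching shares of all genes, at an unadjusted p or in DESeq2, were not determined for this comparison. These counts therefore have no background, and the adjusted shares above do not serve as one. The Cdk6 call against WT was lost without B25 (0.65), B26 (0.53), B28 (0.67), B30 (0.53) or B31 (0.66), with upper quartile normalization (0.41), without a filter on low counts (0.63) and with a stricter filter (0.49).

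Cdk4 (ENSMUSG00000006728, GRCm38 chr10:127063534-127067920, plus strand), the partner of the D cyclins in most tissues, was at 549, 504 and 661 CPM in WT, 887, 620 and 816 CPM with vehicle and 1136, 891 and 1087 CPM with AG221. With ruxolitinib it was at 710, 921 and 793 CPM and with combined treatment at 688, 774 and 842 CPM. WT and vehicle overlapped in A3 and B31, whereas the AG221 libraries all lay above the vehicle libraries. In edgeR, vehicle against WT gave 0.44 ± 0.164 (adjusted p = 0.0537), and combined treatment against AG221 gave -0.43 ± 0.164 (adjusted p = 0.0558). The first passed without A3 (0.60) or B31 (0.57) and with offsets for GC content (0.58). The second passed in 6 of 13 alternatives, at -0.75 to -0.46. Tspan31 overlaps 19.7% of the exons of Cdk4 on the opposite strand and was at 55.4 to 147 CPM.

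Cdkn1a (ENSMUSG00000023067, GRCm38 chr17:29090976-29100727, plus strand), which encodes p21, the inhibitor known as the arrest target of p53, had the largest rise of the 10 genes in vehicle against WT. It was at 13.3, 10.5 and 13.6 CPM in WT and at 118, 104 and 77.9 CPM with vehicle. With AG221 it was at 60.5, 67.5 and 66.7 CPM and with ruxolitinib at 77.4, 40.7 and 74.6 CPM, and with combined treatment at 25.5, 14 and 26.2 CPM. The group means followed the order vehicle, AG221, ruxolitinib, combined treatment and WT, and only AG221 and ruxolitinib overlapped among neighbours in this order. In edgeR, vehicle exceeded WT by 3.0 ± 0.29 on the log2 scale (8.01-fold in the means, adjusted p = 4.38e-05), and combined treatment fell below vehicle by 2.19 ± 0.28 (adjusted p = 0.000811). Leaving out single libraries gave 2.89 to 3.17 and -2.35 to -1.96, and both calls held under every alternative.

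Cdkn1a was also lower with combined treatment than with either drug alone. Its log2 fold change was -1.57 ± 0.275 against AG221 (edgeR, adjusted p = 0.00275) and -1.55 ± 0.275 against ruxolitinib (edgeR, adjusted p = 0.00309). AG221 and ruxolitinib alone were below vehicle in each of their 3 libraries, with -0.63 ± 0.268 and -0.64 ± 0.269, and neither passed the adjustment in edgeR (adjusted p = 0.17 and 1). Combined treatment was 1.75-fold above WT in the means without passing (0.81 ± 0.273, adjusted p = 0.0982).

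Cdkn1b (ENSMUSG00000003031, GRCm38 chr6:134920401-134925513, plus strand) encodes p27, known for restraining CDK2 in resting cells. It was at 19.1, 17.2 and 17.3 CPM in WT, 53.8, 41.3 and 44.1 CPM with vehicle and 43.7, 40.8 and 44.0 CPM with ruxolitinib. The AG221 libraries had 26.1, 33.2 and 37.3 CPM and the combined libraries 24.2, 20.8 and 24.2 CPM. Vehicle and ruxolitinib overlapped, and every other neighbouring pair of groups was apart. Vehicle exceeded WT by 1.38 ± 0.162 (edgeR, adjusted p = 0.000229), and combined treatment lay below vehicle at -1.01 ± 0.161 (adjusted p = 0.00262) and below ruxolitinib at -0.89 ± 0.161 (adjusted p = 0.00332), calls that held under every alternative. The difference of combined treatment from AG221, -0.48 ± 0.16 (adjusted p = 0.0343), was lost without A10 (-0.41), B24 (-0.51), B25 (-0.41) or B26 (-0.51), without a filter on low counts (-0.53) and in a fit of only the compared groups (-0.51). The AG221 fall against vehicle, -0.53 ± 0.16, missed the threshold in edgeR (adjusted p = 0.0859) and passed in DESeq2 (-0.49) and without A9 (-0.56).

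Since Cdkn1a and Cdkn1b moved together, with a Pearson r of 0.932 (Spearman rho 0.943) for log2 CPM over the 15 libraries, their promoters are shown, as RefSeq gives them for GRCm38.p6. The promoter table used here held 9 promoters for 6 of the 10 genes (Ccnd3, Cdk4, Cdk6, Cdkn1a, Cdkn1b and Cdkn2c). The libraries share the groups and the letters named above, so this correlation is a description. Each line has the 250 bases before a transcript start, 5′ to 3′, with 2 starts for Cdkn1a, and capitals mark the matches to the motifs given after the sequences.
Cdkn1a, upstream start, chr17:29090729-29090978, plus strand: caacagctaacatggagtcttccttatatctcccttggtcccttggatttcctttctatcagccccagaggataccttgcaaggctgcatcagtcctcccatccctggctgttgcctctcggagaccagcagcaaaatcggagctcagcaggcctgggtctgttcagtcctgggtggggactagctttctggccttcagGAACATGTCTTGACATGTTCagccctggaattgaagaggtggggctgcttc
Cdkn1a, downstream start, chr17:29093519-29093768, plus strand: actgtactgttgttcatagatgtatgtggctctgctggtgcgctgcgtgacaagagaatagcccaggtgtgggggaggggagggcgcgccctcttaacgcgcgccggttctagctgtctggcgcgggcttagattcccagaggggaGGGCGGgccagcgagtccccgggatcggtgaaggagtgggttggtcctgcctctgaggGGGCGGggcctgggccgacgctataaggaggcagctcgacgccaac
Cdkn1b, chr6:134920151-134920400, plus strand: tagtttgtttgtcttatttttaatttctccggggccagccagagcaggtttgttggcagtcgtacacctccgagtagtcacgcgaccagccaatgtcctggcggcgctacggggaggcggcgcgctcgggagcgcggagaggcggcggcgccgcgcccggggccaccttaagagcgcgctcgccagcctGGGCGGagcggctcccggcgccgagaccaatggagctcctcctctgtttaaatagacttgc

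Both strands were searched for the SP1 box GGGCGG, the STAT motif TTCNNNGAA, the AP-1 motif TGANTCA, the FOXO motif TGTTTAC, the E2F motifs TTTGGCGC and TTTCGCGC, and a pair of p53 half-sites side by side with at most 1 mismatch over 20 bases. The motifs were chosen after the values of these genes were seen. The upstream start of Cdkn1a had such a pair, beginning 51 bases before the start, and 0.0761% of all 32851 promoters of this length had one. The downstream start of Cdkn1a had 2 SP1 boxes and Cdkn1b had 1, and 32.7% of all promoters held that box. None of the 3 stretches held the STAT, AP-1, FOXO or E2F letters, which 7.02%, 6.75%, 3.17%, 0.417% and 0.256% of all promoters held, in the order of the motifs named. A match is a description of letters and no evidence of binding.

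The immediate early genes, a list of 17 genes such as Fos, Egr1 and Atf3 that respond to signals or handling within minutes, moved with Cdkn1a and Cdkn1b. Their summed CPM was 893 to 1225 in WT, 7652 to 16310 with vehicle, 4666 to 6220 with AG221, 4921 to 10116 with ruxolitinib and 823 to 1465 with combined treatment, and 13 of 17 rose in vehicle against WT while 12 of 17 fell in combined treatment against vehicle. Among all genes, 15.4% were called higher in the first of these comparisons and 4.21% lower in the second. Egr3 was at or under 3 counts in every WT and every combined library. Within the vehicle, AG221 and ruxolitinib groups the library with the lowest sum (A4, A8 and A16) also had the lowest Cdkn1a. In the WT and combined groups the library with the lowest sum (B31 and B26) had the highest Cdkn1a, and in the vehicle group A3 had the highest sum and A1 the highest Cdkn1a. The replicate letter separates the low from the high libraries in the same way, and the part of either in the CIP/KIP results was not tested.

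**Figure D4:**
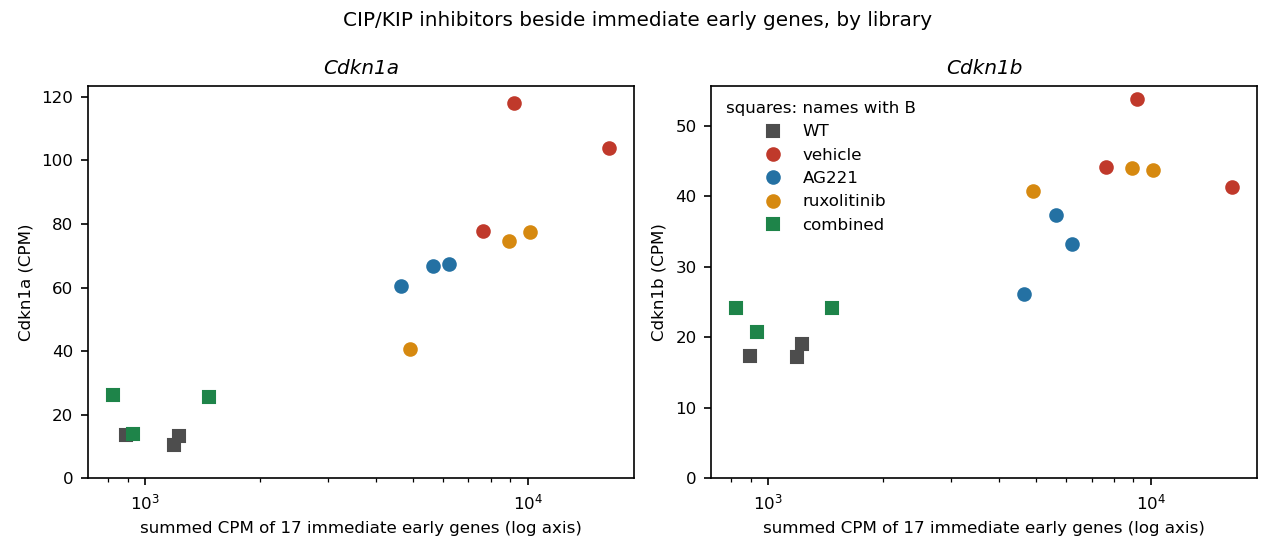
Cdkn1a (left) and Cdkn1b (right) in CPM (vertical axes, linear) against the summed CPM of 17 immediate early genes (horizontal axes, log scale), with 1 point per library, circles for replicate names with A and squares for names with B. All WT and combined libraries lie at sums up to 1465 CPM and the others at 4666 CPM or more.

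Other genes known to be induced by p53 did not all follow Cdkn1a. Of 14 such genes tested, 4 were higher and 1 lower in vehicle than in WT, with a median log2 fold change of 0.26. With combined treatment 0 were higher than with vehicle and 2 lower, with a median of -0.07. Among all genes, 15.4% were called higher and 17.9% lower in the first comparison, and 8.28% higher and 4.21% lower in the second. Pmaip1, which encodes the cell death protein NOXA, was higher with vehicle than in WT by 4.91 ± 0.431 (edgeR, adjusted p = 1.88e-05) and lower with combined treatment at -3.65 ± 0.404 (adjusted p = 0.000258). Gtse1, a G2 and S phase protein, was higher with vehicle by 0.96 ± 0.216 (adjusted p = 0.00806). Plk2, a kinase that is also an early response gene, was lower with combined treatment at -4.93 ± 0.528 (adjusted p = 0.00021). In vehicle against WT, Plk2 gave 0.70 ± 0.424 and did not pass (edgeR, adjusted p = 0.212). The count of 5 in vehicle against WT was 2 without A4 or B30 and 3 without A1 or B28. The part of p53 in the Cdkn1a values was not tested.

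Cdkn1c (ENSMUSG00000037664, GRCm38 chr7:143458339-143461050, minus strand), which encodes p57, rested on few reads in the groups with A names. On the opposite strand, Gm44732, which was not analysed here, overlaps 30.7% of its exons. It had 125, 292 and 120 counts in WT, and 1, 60 and 1 counts with vehicle. With AG221 it had 1, 13 and 9 counts, with ruxolitinib 19, 3 and 21, and with combined treatment 105, 191 and 21. As CPM the WT libraries were at 4.54, 9.84 and 4.02, the vehicle libraries at 0.0376, 1.91 and 0.0395 and the combined libraries at 5.48, 6.60 and 0.971. Every vehicle, AG221 and ruxolitinib library lay below every WT library, and the combined libraries overlapped with WT and with vehicle.

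The log2 fold change of Cdkn1c in vehicle against WT was -3.16 ± 1.12 (edgeR, adjusted p = 0.0445). The call was lost without A1 (-2.59), A4 (-2.60), B28 (-3.32), B30 (-2.64) or B31 (-3.37) and in a fit of only the compared groups (-3.20), and the value was -7.12 without A3. In combined treatment against AG221, Cdkn1c gave 3.74 ± 1.21 (edgeR, adjusted p = 0.0306), which was lost without A8 (3.19), A10 (3.72), B24 (3.55) or B25 (3.30). Against vehicle, combined treatment gave 2.67 ± 1.11 and did not pass in edgeR (adjusted p = 0.14), whereas without A3 it gave 6.65 and passed.

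The vehicle library with 60 Cdkn1c counts, A3, also stood apart for markers of long-term stem cells. The summed CPM of 10 such markers, all of which were detected in each group, was 883 in A3 beside 434 in A1 and 279 in A4. It was 844 to 1094 in WT, 260 to 417 with AG221, 359 to 518 with ruxolitinib and 362 to 615 with combined treatment, where the library with the fewest Cdkn1c counts, B26, had the lowest sum. Other groups did not follow this throughout. With ruxolitinib, A16 had the highest sum (518 CPM) and the fewest Cdkn1c counts (3). In WT, B30 had 292 counts and a sum of 954 CPM, beside 125 counts and 1094 CPM in B28. With AG221, A8 was the lowest for both, whereas A10 had the highest sum and A9 the most counts. Of the 10 markers, 3 were lower and 1 higher in vehicle than in WT, beside 17.9% and 15.4% of all genes. Among them were Hlf, a stem cell transcription factor (-2.22 ± 0.425, edgeR, adjusted p = 0.00431), and Slamf1, which encodes CD150 (1.49 ± 0.375, adjusted p = 0.0122). In combined treatment against vehicle 0 of the 10 passed in edgeR, beside 8.28% of all genes called higher and 4.21% lower. At an unadjusted p under 0.05, 1 marker was higher, and DESeq2 called 1. The part of stem cell content in the Cdkn1c values was not tested.

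Per length, Cdkn1a, Cdkn1b and Cdkn1c made up 34.2% ± 7.53, 37.8% ± 4.55 and 28.0% ± 11.9 of the CIP/KIP message in WT (SD, n = 3). With vehicle the shares were 72.6% ± 2.83, 26.6% ± 3.81 and 0.829% ± 1.35, and with combined treatment 45.6% ± 11.3, 38.1% ± 2.75 and 16.3% ± 12. AG221 (71.8%, 27.6% and 0.603%) and ruxolitinib (64.0%, 35.0% and 0.975%) had shares near those of vehicle, although the ruxolitinib libraries, at 55.9% to 68.5% Cdkn1a, lay below the vehicle libraries, at 69.3% to 74.6%. For all 3 shares the vehicle libraries lay apart from the WT libraries, and the combined libraries lay apart from the vehicle libraries, each with an exact two-sided permutation p of 0.1, the smallest that 3 against 3 libraries can give. None of the 3 shares differed between combined treatment and WT beyond the overlap of their libraries (exact permutation p = 0.3, 0.9 and 0.4).

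Cdkn2c (ENSMUSG00000028551, GRCm38 chr4:109660876-109667189, minus strand), the INK4 inhibitor p18 known for limiting stem cell self-renewal and for plasma cell differentiation, was the highest with combined treatment and the lowest with AG221. It was at 26.9, 29.6 and 20.1 CPM in WT and at 12.8, 24.5 and 19.5 CPM with vehicle. With AG221 it was at 12.6, 7.55 and 5.49 CPM, with ruxolitinib at 34.2, 15.4 and 16.3 CPM and with combined treatment at 53.4, 76.4 and 24.2 CPM. The AG221 libraries lay below all others, although A1 of the vehicle group exceeded A8 only slightly, and B26 of the combined group lay within the range of vehicle and WT. Combined treatment exceeded AG221 by 2.59 ± 0.458 on the log2 scale (edgeR, adjusted p = 0.00284), a call that every alternative kept. Combined treatment exceeded vehicle by 1.44 ± 0.438 (adjusted p = 0.0467), which was lost without A1 (1.22), A3 (1.67), A4 (1.46), B24 (1.41) or B25 (1.03), in a fit of only the compared groups (1.44) and with offsets for GC content (1.19). Against ruxolitinib the value was 1.23 ± 0.436 (adjusted p = 0.0878), and it passed in DESeq2 (1.21), without a filter on low counts (1.22) and without A14 (1.70) or B26 (1.56).

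Rb1 (ENSMUSG00000022105, GRCm38 chr14:73183673-73325822, minus strand), the target of the kinases, was highest with combined treatment, at 17.6, 22.0 and 14.6 CPM. It was at 8.93, 11.4 and 7.95 CPM in WT, 8.84, 8.01 and 12.2 CPM with vehicle, 17.2, 17.3 and 11.3 CPM with AG221 and 10.6, 11.4 and 8.28 CPM with ruxolitinib. Every combined library exceeded every WT, vehicle and ruxolitinib library, and the combined and AG221 libraries overlapped. Against vehicle the log2 fold change of combined treatment was 0.90 ± 0.247 (edgeR, adjusted p = 0.0297), which was lost without A1 (0.84), A3 (0.78), B24 (0.92) or B25 (0.73), without a filter on low counts (0.88) and in a fit of only the compared groups (0.90). Against ruxolitinib it was 0.84 ± 0.247 (adjusted p = 0.0403), which was lost without A14 (0.88), A16 (0.90), A17 (0.70), B24 (0.86) or B25 (0.67), with upper quartile normalization (0.70), without a filter on low counts (0.83) and in a fit of only the compared groups (0.81). Against WT it was 0.94 ± 0.247 and just missed the threshold in edgeR (adjusted p = 0.0549), and it passed in DESeq2 (0.96), with offsets for GC content (1.11) and in a fit of only the compared groups (0.88). Lpar6 and Rcbtb2 on the opposite strand cover 14.9% of the exons of Rb1, and both were above Rb1, at 27.5 to 61.6 and 66.9 to 95.6 CPM, so that the level of Rb1 is uncertain if the reads were counted without strand.

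For either drug alone against vehicle, 0 of the 10 genes passed in edgeR. For AG221, 6 members had an unadjusted p under 0.05, with Cdk4 and Rb1 higher and Ccnd3, Cdkn1a, Cdkn1b and Cdkn2c lower. The share of all genes at that unadjusted threshold was not determined, so the count of 6 has no background. After adjustment, edgeR called 0.471% of all genes higher and 0.516% lower. DESeq2 called 2 members, Cdkn1b as lower and Rb1 as higher, beside 7.49% and 7.89% of the genes it tested. Without A9, 4 members were called in edgeR, namely Ccnd1, Ccnd3 and Cdkn1b as lower and Cdk4 as higher. In that fit 16.6% of all genes tested were called lower and 7.83% higher, many more than with A9. For ruxolitinib, 2 members, Ccnd2 and Cdkn1a, had an unadjusted p under 0.05, both lower, and DESeq2 called 0. After adjustment in edgeR, 0% of all genes tested were called higher and 0.0168% lower with ruxolitinib. The share at an unadjusted p under 0.05 was not determined here either.

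Combined treatment against AG221 called 3 members higher (Ccnd3, Cdkn1c and Cdkn2c) and 3 lower (Ccnd2, Cdkn1a and Cdkn1b), beside 18.9% and 14.3% of all genes. Combined treatment against ruxolitinib called 1 member higher (Rb1) and 2 lower (Cdkn1a and Cdkn1b), beside 8.5% and 3.94% of all genes. Both of these comparisons share the combined libraries, and both set B names against A names. Neutrophil markers also differed there, with the summed CPM of 8 of them, all detected in each group, at 17169 to 20367 with AG221, 12173 to 19123 with ruxolitinib and 4304 to 7672 with combined treatment, beside 7764 to 12805 with vehicle and 3463 to 3813 in WT. B lineage and plasma cell markers (12 genes, all detected in each group) were at 530 to 1119 CPM in WT and at 55.0 to 116 CPM in the mutant groups. Erythroid markers (8 genes) were at 268 to 402 CPM in WT and 618 to 3526 CPM in the mutant groups, and mast cell and basophil markers (6 genes) at 75.2 to 152 CPM and 260 to 1005 CPM. The part of these cell types in the results was not tested.

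The genes of the steps after the D cyclins were counted by list, with directions set by TMM scaling. As background, 15.4% of all genes were called higher and 17.9% lower in vehicle against WT. In combined treatment against vehicle these shares were 8.28% and 4.21%. Of 35 E2F-regulated genes of replication and mitosis, 27 were higher and 0 lower in vehicle than in WT, with a median log2 fold change of 0.64, among them Aurkb, a mitotic kinase (0.86 ± 0.153, edgeR, adjusted p = 0.00322), and Mcm4, a part of the replicative helicase (0.79 ± 0.148, adjusted p = 0.00405). The summed CPM of the list was 6637 to 8218 in WT and 10049 to 12672 with vehicle. The count was 7 without B30, 13 without A4, 15 without A1 and 13 with upper quartile normalization. In combined treatment against vehicle 0 of the 35 passed in edgeR and 0 in DESeq2, with 1 higher and 2 lower at an unadjusted p under 0.05 and a median of -0.078, and the smallest p-values were those of the proliferation marker Mki67 (0.41 ± 0.145, adjusted p = 0.0821) and of Mcm4 (-0.42 ± 0.148, adjusted p = 0.084). Against WT, combined treatment had 9 of the 35 higher, beside 1.63% of all genes. Against AG221, it had 3 of the 35 higher and 12 lower, beside 18.9% and 14.3% of all genes. The median of the list there was -0.44, where that of all genes was 0.11. The levels of Cdk4 over the 15 libraries were most like those of Rnaseh2b (Pearson r 0.990), a subunit of an RNase H enzyme.

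Of the 10 E2F and DP factors, E2f8, a repressor of the family that E2F itself induces, was higher in vehicle than in WT (1.40 ± 0.191, edgeR, adjusted p = 0.000655), and 2 were lower, with E2f6, another repressor, at -1.58 ± 0.36 (adjusted p = 0.00871). With combined treatment 3 were higher than with vehicle and 0 lower, with E2f6 at 2.14 ± 0.367 (adjusted p = 0.00331) and the activator E2f1 at 1.28 ± 0.257 (adjusted p = 0.00635). Without B26, 5 were called. Of the 8 genes of the cyclin E, cyclin A and CDK2 step, 3 were higher and 1 lower in vehicle than in WT, with the CDK-restraining kinase Wee1 at -1.55 ± 0.373 (adjusted p = 0.0106) and the phosphatase Cdc25c at 0.57 ± 0.141 (adjusted p = 0.0113). With combined treatment 4 were higher than with vehicle and 0 lower, led by Ccne1, which encodes cyclin E1 (1.96 ± 0.369, adjusted p = 0.0049), and Wee1 (1.96 ± 0.378, adjusted p = 0.00525). Those 4 calls were 2 without A1, and the 4 in vehicle against WT were 2 without A1 and 1 without B30. Beside both lists stand the shares of all genes, 15.4% higher and 17.9% lower in vehicle against WT. They were 8.28% and 4.21% in combined treatment against vehicle.

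Among 14 tested genes for the turnover of D cyclins and CIP/KIP inhibitors, 4 were higher and 3 lower in vehicle than in WT, and 4 were higher and 3 lower with combined treatment than with vehicle. The shares of all genes were 15.4% higher and 17.9% lower in the first comparison, and 8.28% and 4.21% in the second. Cks1b, the cofactor with which SKP2 marks p27 for destruction, was higher in vehicle than in WT (0.81 ± 0.157, edgeR, adjusted p = 0.00456), as was Ddb1, an adaptor of the CUL4 ligase (0.94 ± 0.19, adjusted p = 0.00542). Fbxw8, an F-box protein linked to cyclin D1, was higher with combined treatment than with vehicle (2.47 ± 0.45, adjusted p = 0.0042), as was Fbxw7, the F-box protein of cyclin E (1.12 ± 0.217, adjusted p = 0.00525). The 7 calls in vehicle against WT were 4 without A1 and 3 without B30, and the 7 with combined treatment were 3 without A1 or B25 and 4 without B24. Of the other INK4 and pocket protein genes, 3 of 5 were tested, and Cdkn2d (p19) was higher in vehicle than in WT (0.59 ± 0.142, adjusted p = 0.0105), a call of this list that was lost without B30. Rbl2, a relative of Rb1, gave -0.88 ± 0.43 there (adjusted p = 0.127) and 0.67 ± 0.429 with combined treatment against vehicle (adjusted p = 0.352), and Rbl1 gave 0.25 ± 0.292 in the latter (adjusted p = 0.647). Of the 3 genes of the CDK-activating kinase, 0 passed in either comparison in edgeR or DESeq2, 0 had an unadjusted p under 0.05, and 2 were called in vehicle against WT with GC content offsets, with Ccnh at 0.33 ± 0.164 (adjusted p = 0.134) in vehicle against WT.

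By Pearson r of log2 CPM over the 15 libraries, Cdkn1a was most like Gm11769 (0.981) and Bcl10 (0.960), and Cdkn1b like Hist3h2a (0.951) and 2310022A10Rik (0.945). The nearest genes were Tpst2 (0.979) and Acadl (0.978) for Ccnd3, Spns3 (0.977) and I830077J02Rik (0.962) for Cdk6, Zcchc3 (0.965) and Ccdc149 (0.956) for Cdkn1c, and Noct (0.955) and Cdr2 (0.913) for Rb1. They were Ptpn3 (0.923) and Dnajb5 (0.895) for Ccnd1, Nrtn (0.908) for Cdkn2c, and Tgtp2 (0.880) and Iigp1 (0.876), both interferon-inducible GTPases, for Ccnd2. Among the members, Cdkn1c ran opposite to Cdk4 (r -0.787), Cdkn1a (-0.763) and Cdk6 (-0.744), and Cdk4 and Cdk6 ran together (0.797). All libraries of a group share the treatment and the letter, so these likenesses are descriptions over few independent points.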

How the data were processed

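LSK libraries (15, 3 per group) were grouped by the treatment named in their labels. The authors aligned paired-end reads from SMARTer-amplified RNA to mm10 with STAR 2.5.1a under default settings and deposited raw read counts per Ensembl gene. They also deposited a signal table of counts divided by DESeq2 (1.6.3) size factors, which matched the raw counts to a single factor per library within a relative tolerance of 1e-09 and was not used further. The strand setting of the counting and the Ensembl release are not given in the sources used here.

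IDs were named from GENCODE mouse release M21 (44585 of 45232 matched), on GRCm38. The counts were normalized by TMM and tested with the quasi-likelihood test of edgeR 4.0.16 (R 4.3.3) in 1 fit of all 15 libraries without covariates, over the 17834 genes that filterByExpr kept, with Benjamini-Hochberg adjustment over all of them and a call at 0.05. Errors of fold changes are standard errors computed as the absolute log2 fold change over the square root of the F statistic of the edgeR test. The log2 CPM used for correlations and GC content offsets had a prior count of 2. CPM per kb divides CPM by the length of a gene's merged exons. Shares were compared with exact permutation tests.

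The 10 genes were named in every comparison. From each list, the 2 tested genes with the smallest p-values in vehicle against WT and in combined treatment against vehicle were named, and for each member the 2 genes with the highest Pearson r over the libraries, of which some are not reported here. The members and lists were chosen with earlier results of these data known. The scripts were tested on simulated data. The alternatives were RLE and upper quartile normalization, GC content offsets (lowess span 0.3), 2 other filters on low counts, only the groups compared, DESeq2 1.42.0 and each library left out.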

Additional observations from a re-analysis of the deposited data

How the results depend on the processing

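No paired analysis was possible because the groups share no replicate names. Of the 7 counts of members called, those of vehicle against WT (3 to 5 when single libraries were left out), ruxolitinib against vehicle (0) and combined treatment against ruxolitinib (2 to 4) moved by no more than 1.5 times. Against vehicle, AG221 had 0 members called, 2 with DESeq2 and 4 without A9, where 16.6% of all genes were called lower and 7.83% higher (0 to 4 over the libraries left out). Combined treatment had 4 members called against vehicle and 2 in a fit of only the groups compared, with 2 without A1, B24 or B25 and 2 to 4 over all libraries left out. Against AG221 it had 6 members, with 3 without A10 or B25 and 3 to 8 over all libraries left out. Against WT it had 1 member called, 0 with upper quartile normalization, without a filter and with at least 10 counts in every library, 2 with GC content offsets, with DESeq2 and in a fit limited to both groups, and 0 without B25, B26, B28, B30 or B31 (0 to 1 over the libraries left out). Cdkn1c has no value with at least 10 counts in every library.

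No value that changed sign was called under the alternative that turned it. Under upper quartile normalization, the log2 fold change of combined treatment against ruxolitinib was -0.03 for Ccnd2 and -0.051 for Cdk6, and for Rb1 it was -0.053 against AG221 and -0.056 in vehicle against WT, where at least 10 counts in every library gave -0.082. Ccnd3 in vehicle against WT was 0.16 with GC content offsets, 0.022 without a filter and 0.0051 with DESeq2. With single libraries left out, the ranges were -0.15 to 0.17 for Ccnd3 and -0.14 to 0.20 for Rb1 in vehicle against WT, -0.019 to 0.18 for Cdk6 and -1.82 to 2.91 for Cdkn1c in AG221 against vehicle, and -0.078 to 0.17 for Cdk4, -0.19 to 0.0018 for Cdkn1b, -0.72 to 3.8 for Cdkn1c, -0.26 to 0.44 for Cdkn2c and -0.062 to 0.26 for Rb1 in ruxolitinib against vehicle. They were -0.026 to 0.34 for Ccnd1 and -0.15 to 0.095 for Cdk4 in combined treatment against vehicle, -0.16 to 0.0033 for Cdk4 and -0.019 to 0.13 for Cdk6 against ruxolitinib, and -0.15 to 0.0021 for Ccnd2 and -0.91 to 0.029 for Cdkn1c against WT. For Cdkn1c, 2.91 and 3.8 came without A3. The causes were not tested.

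Scaling moved the balance of calls over all genes. In vehicle against WT 2747 genes were higher and 3190 lower, against 1306 and 3586 with upper quartile normalization, with a median over all genes of -0.18, and 4170 and 2777 with GC content offsets. In combined treatment against AG221, the median over all genes was 0.11 with TMM and -0.18 with upper quartile normalization, with 3371 higher and 2546 lower against 2671 and 4359, and 2882 and 3609 with GC content offsets. AG221 against vehicle had 84 higher and 92 lower, against 571 and 167 with upper quartile and 123 and 90 with RLE normalization, and combined treatment against WT had 291 and 288, against 102 and 539 with upper quartile normalization. Low counts limit Cdkn1c, with 1 to 60 counts in the vehicle, AG221 and ruxolitinib libraries.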
